A study of Mus musculus with 24 samples.

Results

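The nuclear genes of oxidative phosphorylation were followed in total RNA-seq libraries of mouse preimplantation embryos in which the endogenous retrovirus MERVL had or had not been depleted. Members were taken by symbol: every gene row whose name began with Ndufa, Ndufb, Ndufc, Ndufs, Ndufv, Cox4 to Cox8, Uqcr or Atp5, or was Sdha, Sdhb, Sdhc, Sdhd, Cyc1 or Cycs, leaving out 14 matching names that carried the pseudogene mark -ps. The rule gave 99 of 55291 genes. Complexes were assigned by symbol alone, 41 genes to complex I and 8 to the complex I assembly factors of the Ndufaf series. Complex II received 4, complex III 9, complex IV 19 and ATP synthase 17, with Cycs as cytochrome c. The rule itself uses symbols and no measured value, but it was chosen with earlier results of these data known. There were 12 libraries, 2 in each of 6 groups: control and MERVL-KD embryos at the 2-cell stage (1.5 dpc in the labels) and at the 4-cell and 8-cell stages (both 2.5 dpc). All embryos had the strain label BDF2 and came from superovulated B6D2F1 females mated with B6D2F1 males. MERVL-KD zygotes had received 3 antisense oligonucleotides against MERVL in the male pronucleus, and control zygotes a scrambled oligonucleotide in the same way, each at 20 µM. The 2 libraries of a group are biological replicates in the study's account, and p-values measure the spread between them. Each library pooled 30 embryos freed of the zona, so a value is a mean over embryos, and fewer cells of a type cannot be told apart from less RNA per cell.

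Oxidative phosphorylation passes electrons from NADH (complex I) and succinate (complex II) through coenzyme Q, complex III and cytochrome c to oxygen at complex IV, and ATP synthase uses the proton gradient this builds to make ATP. Most subunits are encoded in the nucleus and imported into the mitochondrion, while a small set is encoded by the mitochondrial genome, so assembly needs both sources and dedicated assembly factors. Cleavage-stage mouse embryos inherit their mitochondria and a store of RNA from the oocyte and take pyruvate and lactate as main fuels before glucose use rises.

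Libraries held 28167085 to 41482526 counts in all. The retroviral internal part, MERVL-int, took 6.33% and 6.57% of counts in control 2-cell embryos against 0.157% and 0.143% after depletion, and was lower in every MERVL-KD library than in either control at the 4-cell and 8-cell stages too. The summed level of 12 cumulus and granulosa genes, cells that surround the oocyte, stayed between 3.1 and 12.4 counts per 1000000 gene counts in every library. The sum of 6 markers of the 2-cell stage ran from 369 to 662 on the same scale in 2-cell libraries and from 70.1 to 134 later. In 2-cell controls that sum was 662 and 527, and in MERVL-KD 2-cell embryos 369 and 433. The sum of 9 oocyte and maternal genes was 2181 and 2022 in 2-cell controls against 1534 and 1634 in MERVL-KD 2-cell embryos. Of the 9 genes 3 were called lower there. This sum was lower after depletion in later embryos too: 1395 and 1468 against 1744 and 1592 (4-cell), 1593 and 1649 against 1756 and 1824 (8-cell). Most of its genes did not go that way at the 4-cell stage. There 6 of the 9 lay above 0 against control (median log2 fold change 0.42) and 1 was called lower. At the 8-cell stage 4 lay above 0 (median -0.05) and 1 was called lower. From control 2-cell to 4-cell embryos 8 of the 9 genes were called lower and 1 higher, so the sum need not follow most of its genes. The sum of 7 markers of the 8-cell stage and later was 1247 and 1227 in 8-cell controls against 1105 and 1155 in MERVL-KD 8-cell embryos. Of these 7 genes 3 were called lower there and 0 lay above 0 (median log2 fold change -0.65), where 3.56% of all genes were called lower. Against control 2 of the 7 were called lower at the 4-cell stage and 1 higher at the 2-cell stage. The 13 protein-coding genes of the mitochondrial genome were listed at 0 counts in all 12 libraries, so the mitochondrially encoded subunits were not analysed here. Matches of the oligonucleotides to the 99 gene bodies numbered 0 with up to 2 mismatches, for the 3 MERVL oligonucleotides and the scrambled one alike. Genes outside the members were not searched.

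Together the 99 genes took 0.159% of gene counts in each control 2-cell library, 0.373% and 0.365% in 4-cell controls and 0.420% and 0.416% in 8-cell controls. In MERVL-KD embryos the shares were 0.167% and 0.167%, then 0.384% and 0.405%, then 0.420% and 0.433%. The stages did not overlap between the 2-cell stage and the later ones in either condition. Levels are given below as CPM, counts per 1000000 of a library size scaled by TMM in edgeR over all 12 libraries. Between genes they are given as CPM per kb of exon. On that scale 18 and 20 of the members reached 10 CPM per kb in the control 2-cell libraries, 40 and 39 at the 4-cell stage and 51 and 49 at the 8-cell stage. The count below 1 CPM per kb went from 21 and 25 to 10 and 9 and then to 8 and 8.

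The complexes started from different levels and did not move by the same factor. Summed over its 17 genes, ATP synthase went from 539 ± 21.3 CPM (SD, n = 2) in control 2-cell embryos to 1308 ± 8.46 at the 4-cell stage, 2.43 times as much. Complex I went from 203 ± 0.199 to 555 ± 5.17, and complex III, which hands electrons to cytochrome c, from 78.2 ± 3.84 to 306 ± 1.99, which was 3.91 times as much. Complex II, the only respiratory complex encoded wholly in the nucleus, went from 39.5 ± 5.67 to 57.3 ± 2.74, a factor of 1.45, and complex IV, the oxidase, from 292 ± 15.6 to 509 ± 18.8, a factor of 1.74. The assembly factors went the other way, from 149 ± 2.94 to 99.9 ± 4.19. From the 4-cell to the 8-cell stage the control sums moved by factors between 1.06 for complex II and 1.43 for complex IV.

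**Figure D1:**
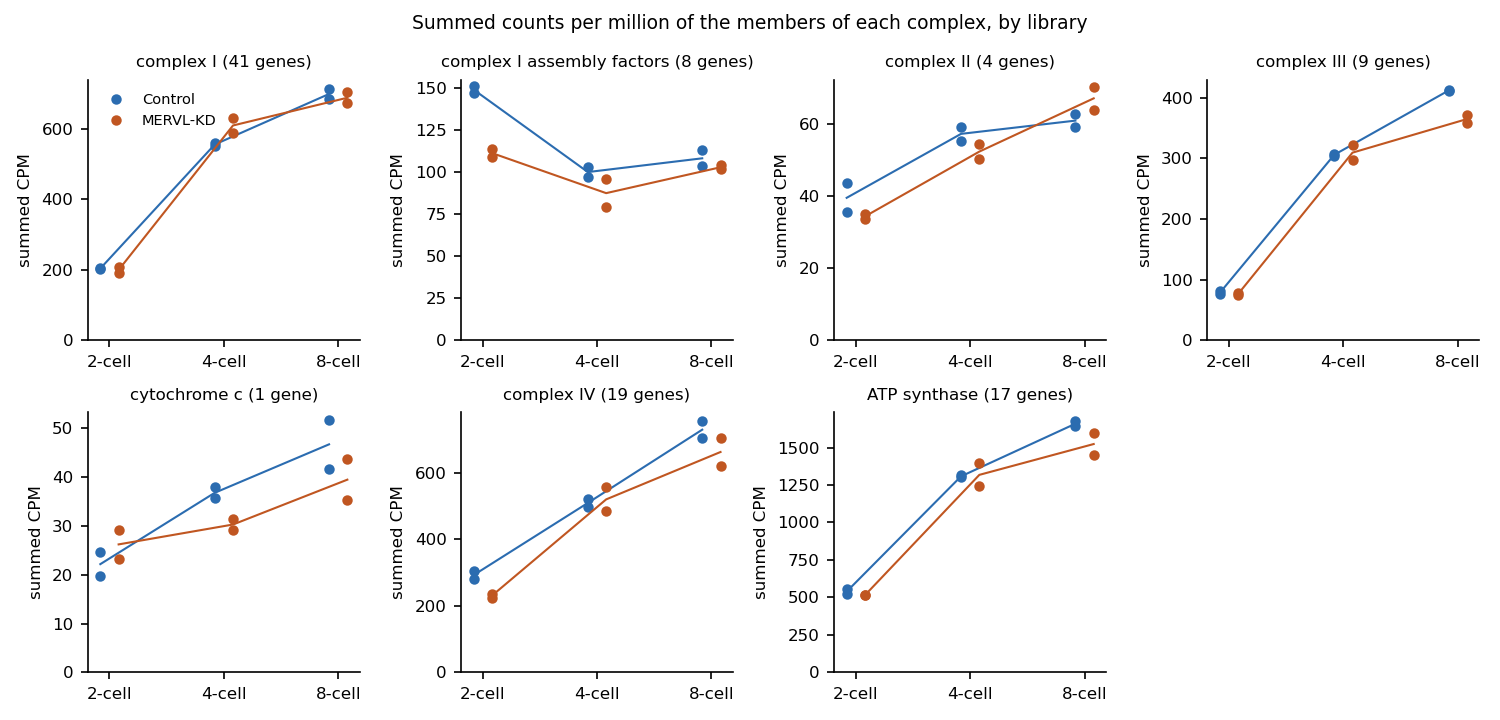
Summed CPM of the members of each complex (y axis) in each of the 12 libraries by stage (x axis), with control points in blue, MERVL-KD points in orange and lines joining group means. ATP synthase goes from 539 to 1308 CPM in control between the 2-cell and 4-cell stages, and the assembly factors from 149 to 99.9.

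Members were also ranked within their complexes per kb of exon, a scale that, unlike the summed CPM above, divides by exon length. That length counts every annotated exon base of a gene, so the ranks depend on the annotation. It was 6443 bases for Atp5l and 1756 for Atp5e, whose counts in control 4-cell libraries were 353 and 287 and 184 and 180. Cox8a, a small nuclear subunit of complex IV, had the highest mean level of all members over the control libraries, 122 CPM per kb, ahead of Atp5a1 and Atp5b, the alpha and beta subunits of the catalytic head of ATP synthase, at 71.4 and 70.3 CPM per kb. Uqcr10, a small subunit of complex III, led its complex at 58.0 CPM per kb. Ndufb11, an accessory subunit, was highest in complex I, Ndufaf4 among the assembly factors and Sdha, the flavoprotein subunit of succinate dehydrogenase, in complex II. The lowest in their complexes were Atp5l, Ndufa4l2, Ndufaf3, Sdhc, Cyc1 and Cox8c. Ndufa4l2, Ndufa11b and Cox8b had too few counts for any comparison, 6 members entered some of the 9 comparisons and 90 entered all of them.

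To ask how the genes moved as development went on, consecutive stages were compared within each condition in 1 edgeR quasi-likelihood fit of 12 libraries. Benjamini-Hochberg adjustment ran over all genes and repeat families tested, 24040 of them genes, with a call at adjusted p under 0.05. Between control 2-cell and control 4-cell embryos 80 of 96 members were called, 73 higher and 7 lower, where 55.1% of all genes were called, 26.4% higher and 28.7% lower. With a change of at least 2-fold as well, 63 members were higher and 3 lower, beside 20.7% and 24.3% of all genes. The median log2 fold change was 1.44 over the members and -0.06 over all genes, and 85 of 96 members lay above 0. Over 11 alternative settings and 4 refits without a control library the count stayed between 66 and 84 and the median between 1.38 and 1.60.

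MERVL-KD embryos, which share no library with the controls, were called higher for 75 of 96 members and lower for 7 over the same step, where 54.4% of all genes were called, 27.1% higher and 27.3% lower, with a median of 1.57. Both steps called 68 members higher, 93.2% of those in control and 90.7% of those in MERVL-KD embryos. The same overlap was not worked out over all genes, so it cannot tell members from other genes. Both steps were tested in the same fit and share its estimate of spread. Of the 7 members lower in control 5 were also lower in MERVL-KD embryos. Called higher in control alone were Atp5g1, Cox4i2, Cycs, Ndufaf7 and Ndufb3, and none of these 5 passed the test of the difference between the conditions itself.

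By role, all 17 ATP synthase genes were called higher in control embryos: 5 of 5 of the catalytic head, 3 of 3 c-ring genes, 4 of 4 of the peripheral stalk and 5 of 5 other membrane subunits. Atp5d, the delta subunit of the head, went from 1.72 and 1.58 CPM per kb to 17.7 and 18.0, a log2 fold change of 3.43 ± 0.18 (SE, adjusted p = 8.9e-13). All 9 complex III genes were called, each by at least 2-fold, led by Uqcrb, which went from 5.50 and 4.90 to 61.1 and 55.0 CPM per kb. Its log2 fold change was 3.48 ± 0.16 (adjusted p = 1e-13), and Cyc1, the cytochrome c1 subunit, had 1.40 ± 0.21 (adjusted p = 7.7e-06).

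All 7 core subunits of complex I were called higher, the ones that carry the flavin and iron-sulfur centres, with Ndufs7 at 3.09 ± 0.24 on the log2 scale. Of 30 accessory subunits 22 were called higher and 1 lower. The largest rise of any member was that of Ndufa12, an accessory subunit, which went from 0.528 and 0.421 CPM per kb to 10.2 and 7.73, a log2 fold change of 4.24 ± 0.27 (adjusted p = 1.4e-11). Ndufb4, Ndufa3, Ndufs6 and Ndufc2, also accessory, followed with 4.14 ± 0.31, 3.67 ± 0.34, 3.57 ± 0.38 and 3.53 ± 0.33. Each of these 5 genes lay under 1 CPM per kb in both control 2-cell libraries and above 5 in both control 4-cell libraries. The genes of the complex I assembly factors split, with 3 called higher and 3 lower of 8.

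In complex II, Sdhb, the iron-sulfur subunit, was called at 1.89 ± 0.27 (adjusted p = 3.9e-06) and Sdhd, a membrane anchor, at 1.17 ± 0.30 (adjusted p = 0.0023). Sdha had 0.29 (adjusted p = 0.087) and Sdhc, the other anchor, 0.09 (adjusted p = 0.84). Cycs, the electron carrier between complexes III and IV, went from 5.77 and 7.25 to 10.5 and 11.1 CPM per kb, a log2 fold change of 0.73 ± 0.16 (adjusted p = 0.00071). Among 10 broadly used nuclear subunits of complex IV, 8 were called higher and 2 lower. Cox7c went from 5.10 and 6.01 to 44.7 and 46.4 CPM per kb and Cox6c from 14.1 and 17.3 to 52.1 and 48.7.

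**Figure D2:**
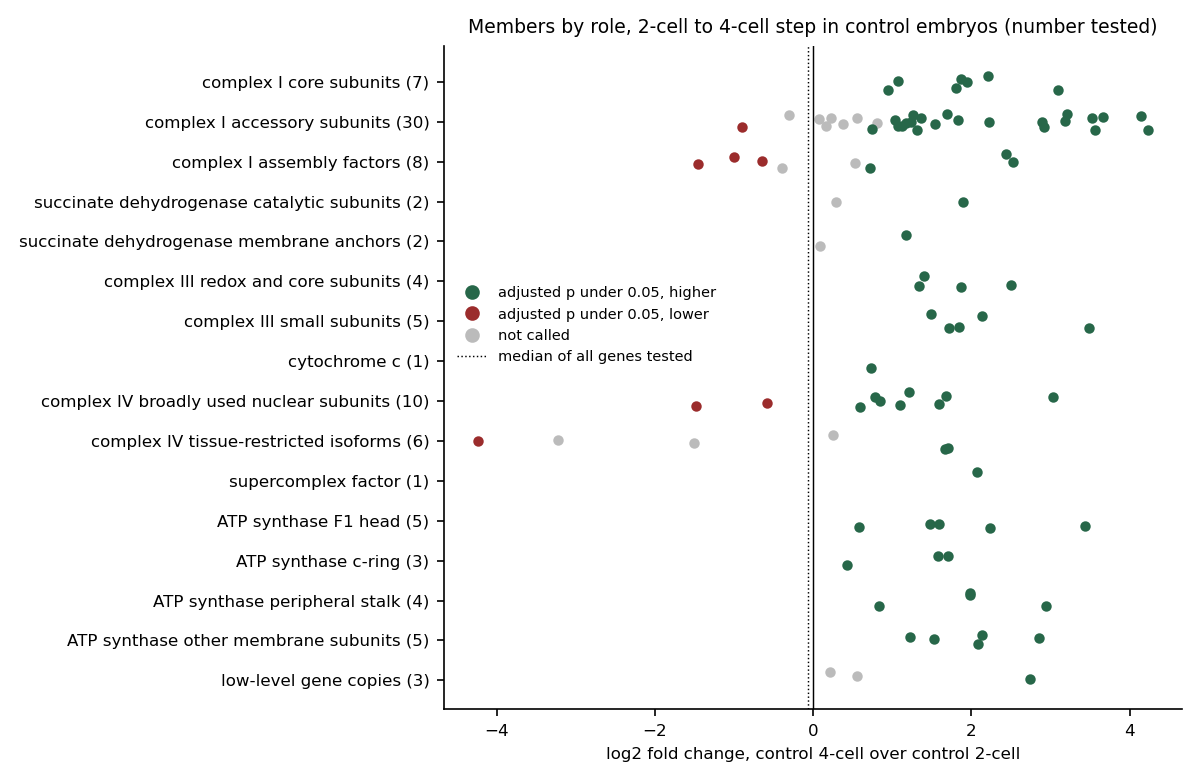
Log2 fold change of each member between control 2-cell and control 4-cell embryos (x axis), 1 point per gene, by role (y axis), with called members in green (higher) or red (lower), the others in grey and the median of all genes as a dotted line. The ATP synthase, complex III and complex I core points all lie above 0, and the lowest point is Cox6b2 at -4.24.

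Of the 7 members that fell between the control 2-cell and 4-cell stages 3 were complex I assembly factors. Ndufaf4 went from 24.1 and 25.2 to 9.23 and 8.74 CPM per kb, a log2 fold change of -1.45 ± 0.12 (adjusted p = 7.5e-10). Ndufaf2 and Ndufaf5 had -0.997 ± 0.22 (adjusted p = 0.00062) and -0.65 ± 0.21 (adjusted p = 0.014). Ndufa2, an accessory subunit of complex I, had -0.90 ± 0.24 (adjusted p = 0.0034). The other 3 were subunits of complex IV: Cox7b at -1.48 ± 0.28 (adjusted p = 0.00015), Cox8a at -0.58 ± 0.12 (adjusted p = 0.00019) and Cox6b2.

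Cox6b2 is known as the testis form of subunit 6b and Cox6b1 as its broadly expressed partner, and the pair crossed over between the stages. Cox6b2 stood at 23.3 and 22.5 CPM per kb in control 2-cell embryos, at 0.819 and 1.63 at the 4-cell stage and at 0.655 and 1.09 at the 8-cell stage. Cox6b1 stood at 15.9 and 14.9, then 37.4 and 33.8, then 49.96 and 47.9 CPM per kb. All 2-cell libraries lay far from the later ones for both genes, in opposite directions. Over the step Cox6b2 fell by 4.24 ± 0.41 on the log2 scale (adjusted p = 1.1e-07) and Cox6b1 rose by 1.21 ± 0.15 (adjusted p = 6.6e-07). Cox6b2 made up 59.8% ± 0.49 (SD, n = 2) of the summed CPM per kb of the pair in control 2-cell embryos, 3.37% ± 1.74 in 4-cell and 1.76% ± 0.66 in 8-cell controls. In MERVL-KD embryos its share was 56.2%, 7.75% and 4.26%. Its level there was 17.2 and 18.8, then 3.89 and 1.56, then 2.24 and 1.34 CPM per kb, and it was not called against control at any stage (log2 fold changes of -0.26, 1.17 and 1.04, adjusted p = 0.25, 0.19 and 0.27). At the 8-cell stage both MERVL-KD libraries lay above both controls. None of the 50-base stretches of its exons occurs elsewhere in the genome.

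The 3 genes Atp5g1, Atp5g2 and Atp5g3 encode the same mature c-ring protein behind different import signals. Atp5g1 made up 67.0% ± 4.85 of their summed CPM per kb in control 2-cell embryos and 46.6% ± 1.11 at the 4-cell stage, and Atp5g3 22.9% and 36.2%. In MERVL-KD embryos Atp5g1 went from 68.4% to 37.3% ± 5.79 and Atp5g3 from 24.5% to 47.0% ± 4.74. In the set of Cox7a1, Cox7a2 and Cox7a2l, of which Cox7a2l is known as a supercomplex factor, the share of Cox7a2l went from 18.1% to 36.8% in control embryos. Other pairs kept 1 leading member. Cox4i1 held 90.4%, 90.0% and 91.0% of its pair with Cox4i2 over the 3 control stages and 81.0% ± 3.28, 91.5% and 93.5% in MERVL-KD embryos, where both 2-cell libraries (83.4% and 78.7%) lay below both 2-cell controls (88.3% and 92.6%). In every library Cox8a, Cox6a1 and Ndufa4 held at least 98.5%, 94.7% and 93.5% of their sets.

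**Figure D3:**
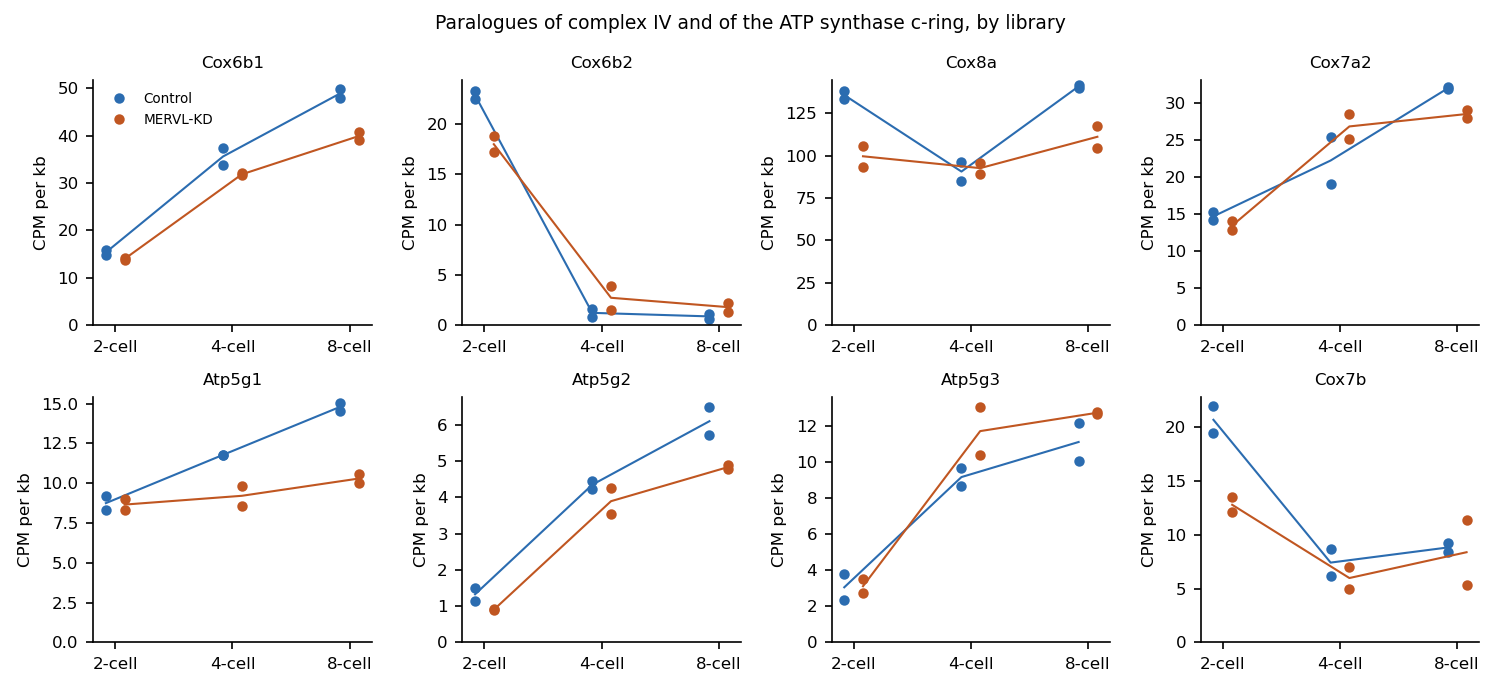
CPM per kb (y axes, linear and starting at 0) of Cox6b1, Cox6b2, Cox8a, Cox7a2, Atp5g1, Atp5g2, Atp5g3 and Cox7b by stage (x axes), with a point per library, control in blue and MERVL-KD in orange, and lines joining group means. Cox6b2 starts above Cox6b1 at the 2-cell stage and lies under it at the 4-cell and 8-cell stages in both conditions.

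Promoter letters were read for the members because nuclear respiratory factor 1 (NRF1) is known to bind many respiratory gene promoters. RefSeq windows of build GRCm38.p6, from 250 bases before to 50 after the start of a gene, existed for 77 of the 99 members. The NRF1 letters GCGCANGCG, searched on both strands, occurred in 22 of 77 member windows (28.6%) and in 1749 of 27025 windows in all (6.47%). Among members with a rise of at least 2-fold between control 2-cell and 4-cell embryos 16 of 51 held it (31.4%), and among the other members 6 of 26 (23.1%). The YY1 letters AAGATGGCG occurred in 7 of 77 member windows (9.09%) and 1.49% of all, and the ETS letters CCGGAAGT in 5 of 77 (6.49%) and 4.00% of all. The GC box GGGCGG (46.8% of member windows, 35.9% of all) and CCAAT (45.5% and 37.9%) were common in both. Median GC content was 58.7% in the member windows and 52.7% in all, and matches of different motifs overlapped in 0 member windows. A match is a run of letters only.

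The windows of 5 members are shown because they pair genes that moved differently over this step. Ndufb4 (chr16:37654319-37654618, minus strand) and Sdha (chr13:74350191-74350490, minus strand) each hold 3 NRF1 matches, though Ndufb4 rose by 4.14 on the log2 scale and Sdha had 0.29. Sdhb (chr4:140961021-140961320, plus strand), which rose by 1.89, holds none. Cox6b1 (chr7:30626065-30626364, minus strand) and Cox6b2 (chr7:4753045-4753344, minus strand), which moved in opposite directions, hold none either. The windows are printed in the direction of transcription with the NRF1 letters in capitals.
Ndufb4: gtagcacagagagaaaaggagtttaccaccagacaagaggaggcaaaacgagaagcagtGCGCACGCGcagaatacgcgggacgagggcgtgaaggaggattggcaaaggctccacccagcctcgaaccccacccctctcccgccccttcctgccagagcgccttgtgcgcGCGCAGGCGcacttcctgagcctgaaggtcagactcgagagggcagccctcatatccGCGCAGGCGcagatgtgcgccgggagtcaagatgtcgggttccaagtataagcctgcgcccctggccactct
Sdha: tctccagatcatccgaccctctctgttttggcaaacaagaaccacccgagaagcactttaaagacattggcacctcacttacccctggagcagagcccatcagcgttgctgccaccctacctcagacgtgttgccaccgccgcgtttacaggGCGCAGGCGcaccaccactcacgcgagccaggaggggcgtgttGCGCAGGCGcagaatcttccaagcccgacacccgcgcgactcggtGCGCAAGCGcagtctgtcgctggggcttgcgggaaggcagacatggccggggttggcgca
Sdhb: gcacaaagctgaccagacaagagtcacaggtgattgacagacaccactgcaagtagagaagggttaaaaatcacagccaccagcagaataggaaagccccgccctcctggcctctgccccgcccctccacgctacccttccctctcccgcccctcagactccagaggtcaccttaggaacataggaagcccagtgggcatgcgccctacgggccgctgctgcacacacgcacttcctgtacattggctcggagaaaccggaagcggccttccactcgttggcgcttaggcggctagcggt
Cox6b1: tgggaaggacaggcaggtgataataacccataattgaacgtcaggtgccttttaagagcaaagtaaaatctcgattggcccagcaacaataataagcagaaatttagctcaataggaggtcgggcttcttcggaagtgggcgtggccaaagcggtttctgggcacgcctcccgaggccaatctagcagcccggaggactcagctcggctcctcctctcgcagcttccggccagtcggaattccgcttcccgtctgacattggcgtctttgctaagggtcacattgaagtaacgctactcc
Cox6b2: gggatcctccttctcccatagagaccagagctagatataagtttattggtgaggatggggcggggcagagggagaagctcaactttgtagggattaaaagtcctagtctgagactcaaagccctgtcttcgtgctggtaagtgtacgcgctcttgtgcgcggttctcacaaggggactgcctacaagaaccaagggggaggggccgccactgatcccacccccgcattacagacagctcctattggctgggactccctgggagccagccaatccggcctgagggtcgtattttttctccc

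From the control 4-cell to the 8-cell stage 11 of 96 members were called, all higher, where 5.87% of all genes were called, 3.19% higher and 2.68% lower. None changed by 2-fold. They were Ndufa13, Uqcr10, Cox8a, Cox6c, Atp5d, Ndufb10, Uqcrfs1, Uqcrq, Cox7c, Cox4i1 and Atp5b, with log2 fold changes from 0.40 to 0.80. Uqcr10 went from 59.0 and 56.6 to 93.1 and 98.1 CPM per kb (log2 fold change 0.72 ± 0.13, adjusted p = 0.0025). Cox8a, which had fallen at the step before, went from 96.3 and 84.9 to 140 and 142 CPM per kb, and its 4-cell libraries lay under those of both neighbouring stages. The median over members was 0.33, beside -0.01 over all genes, and 85 of 96 lay above 0. The count was 2 or 3 whichever of the 4 control libraries was left out, and 42 members had an unadjusted p under 0.05, as 19.3% of all genes did. In MERVL-KD embryos Cox6c (0.65) and Ndufaf2 (0.95) were called higher over this step, 2 of 96 members, where 4.68% of all genes were called, 2.27% higher.

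To ask whether MERVL depletion changed these genes, MERVL-KD and control embryos were compared within each stage. Adjustment was again over all genes and repeat families tested. At the 2-cell stage 9 of 93 members were called, 3 higher and 6 lower, where 14.1% of all genes were called (6.7% of all genes higher, 7.39% lower). At the 4-cell stage 6 of 94 were called, 3 higher and 3 lower, where 10.8% of all genes were called (4.92% higher, 5.84% lower), and at the 8-cell stage 3 of 93, all lower, where 5.06% of all genes were called (1.5% higher, 3.56% lower). The shares of members called, 9.68%, 6.38% and 3.23%, were below those of all genes at each stage. The median log2 fold change over members was 0.02, 0.05 and -0.06 at the 3 stages, beside 0.01, 0.03 and 0.01 over all genes. On the TMM scale of all 12 libraries the members summed to 1294 and 1353 CPM in control 2-cell embryos. In MERVL-KD 2-cell embryos they summed to 1175 and 1211, lower than in control, while their share of gene counts was higher there. The fold changes against control used TMM within the 4 libraries of a stage. With all 12 libraries in 1 fit the members' 2-cell median was -0.085, so levels and fold changes can differ slightly. In every called member the 2 control libraries and the 2 MERVL-KD libraries did not overlap. A call with 2 libraries per group makes this likely, so it adds no support to the calls. Scaling by library size alone moved the median of all genes at the 2-cell stage to 0.30, so changes there are relative to it. With that scaling 14 members passed the test as higher and 0 as lower in 2-cell embryos, 5 and 3 in 4-cell and 1 and 0 in 8-cell embryos, and the members' median at the 8-cell stage turned to 0.06.

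**Figure D4:**
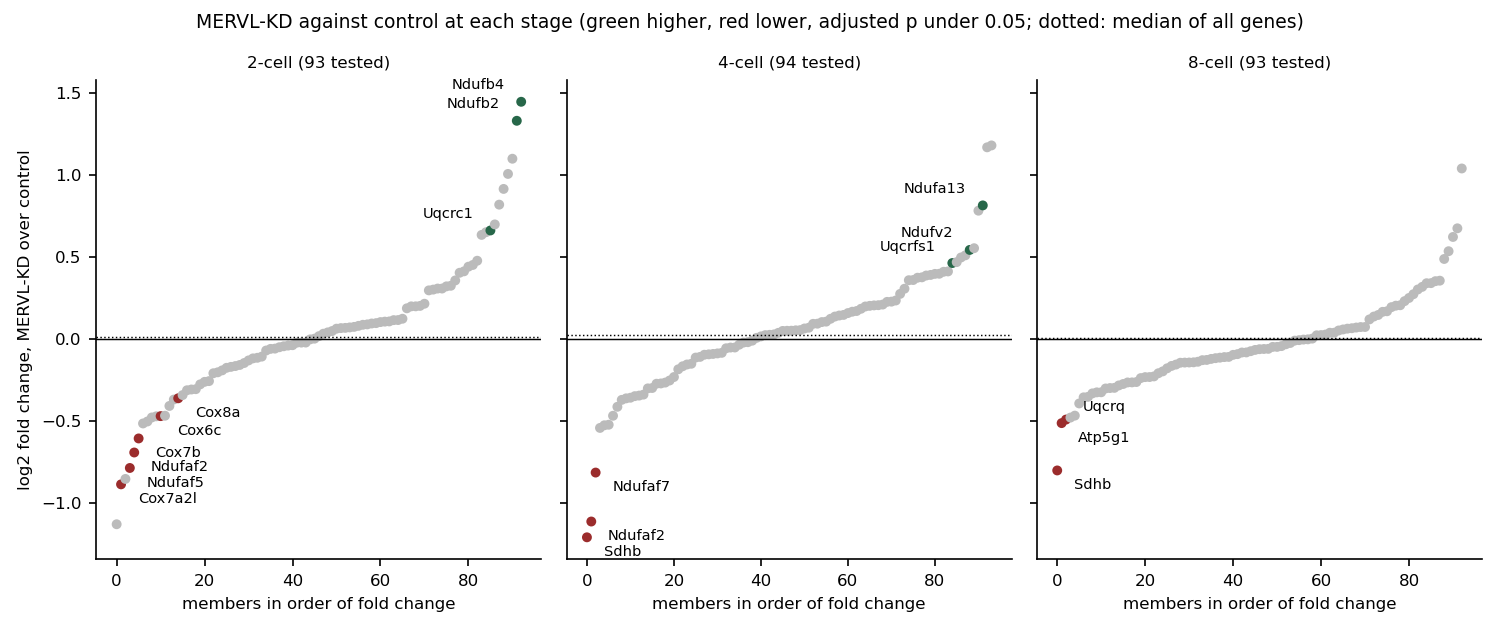
Log2 fold changes of MERVL-KD against control for the tested members at each stage, ranked from lowest to highest (x axis: rank), with called members named, green where higher and red where lower, and the median of all genes dotted. The members have medians of 0.02, 0.05 and -0.06, and 9, 6 and 3 members are called.

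At the 2-cell stage 4 of the 6 genes that were lower belonged to complex IV and 2 were complex I assembly factors. Of these 6, Ndufaf5, Ndufaf2, Cox7b and Cox8a were among the 7 members that fell from the control 2-cell to the 4-cell stage, while Cox6c and Cox7a2l rose there (log2 fold changes of 1.68 and 2.07). The summed 2-cell stage markers and the summed oocyte and maternal genes were also lower in these MERVL-KD embryos, as given above. The oocyte and maternal sum was lower in later MERVL-KD embryos too, though at the 4-cell stage 6 of its 9 genes lay above 0 against control. The part of either sum in the 6 calls was not tested. Cox7a2l, the supercomplex factor, stood at 3.82 and 3.17 CPM per kb in control and 1.58 and 1.99 in MERVL-KD embryos (log2 fold change -0.89 ± 0.28, adjusted p = 0.045). Cox7b stood at 19.4 and 21.9 against 13.5 and 12.1 (-0.61 ± 0.15, adjusted p = 0.012), Cox6c at 14.1 and 17.3 against 9.66 and 11.7 (-0.47 ± 0.13, adjusted p = 0.022), and Cox8a at 133 and 138 against 93.4 and 106 (-0.36 ± 0.10, adjusted p = 0.027). No complex IV gene of 16 tested was called higher at this stage. Ndufaf5, an assembly factor known to modify a core subunit, stood at 7.72 and 7.51 CPM per kb in control and 4.37 and 3.94 in MERVL-KD embryos (-0.79 ± 0.18, adjusted p = 0.0088). It was the only one of the 9 calls that held without each of the 4 libraries in turn. Ndufaf2 stood at 6.96 and 5.92 against 4.06 and 3.44 (-0.69 ± 0.17, adjusted p = 0.013). All 6 were lower by less than 2-fold, and all 6 calls were lost when library size alone set the scale.

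Higher in MERVL-KD 2-cell embryos were the complex I accessory subunits Ndufb4 and Ndufb2 and Uqcrc1, a core subunit of complex III. Ndufb2 stood at 0.510 and 0.274 CPM per kb in control and 0.878 and 0.980 in MERVL-KD embryos (log2 fold change 1.33 ± 0.32, adjusted p = 0.01). Ndufb4 stood at 0.399 and 0.316 against 0.757 and 1.09 (1.45 ± 0.46, adjusted p = 0.047). Both are low levels per kb, with 24 and 22 counts of Ndufb4 in the control libraries. Ndufb2 had 90 and 56 counts there, divided by an exon length of 5628 bases. Uqcrc1 stood at 2.55 and 2.96 CPM per kb against 4.71 and 3.49 (0.66 ± 0.19, adjusted p = 0.026). Seen per gene, Ndufb4 and Uqcrc1 are genes that rose from the control 2-cell to the 4-cell stage, and Ndufb2 is not (log2 fold change -0.31, adjusted p = 0.6). Without the first control library adjusted p was 0.11 for Uqcrc1, 0.097 for Ndufaf2, 0.069 for Ndufb4 and 0.25 for Cox7a2l. Without the second it was 0.18 for Ndufb4, 0.099 for Ndufb2, 0.15 for Cox6c, 0.071 for Cox8a and Cox7b and 0.050 for Cox7a2l. Without the first MERVL-KD library it was 0.26 for Uqcrc1, 0.16 for Cox7a2l, 0.10 for Cox6c and 0.16 for Cox8a, and without the second 0.25 for Ndufb4.

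At the 4-cell stage Sdhb, Ndufaf2 and Ndufaf7 were lower in MERVL-KD embryos and Ndufa13, Ndufv2 and Uqcrfs1 higher. Sdhb (gene body chr4:140961203-140979193, plus strand), through whose iron-sulfur centres electrons of succinate pass to coenzyme Q, stood at 4.50 and 5.42 CPM per kb in control and 2.72 and 1.53 in MERVL-KD embryos. It was 2.32-fold lower (log2 fold change -1.21 ± 0.29, adjusted p = 0.021), and without the second MERVL-KD library the change was -0.86 with adjusted p = 0.056. Ndufaf2 (chr13:108002715-108158623, minus strand), a late assembly factor of complex I, stood at 2.96 and 3.49 against 1.57 and 1.39 and was 2.17-fold lower (-1.12 ± 0.25, adjusted p = 0.014). Ndufaf7 (chr17:78937136-78948052, plus strand), a methyltransferase of complex I assembly, stood at 4.74 and 5.92 against 2.85 and 3.17 (-0.82 ± 0.19, adjusted p = 0.019). Without the second control library adjusted p was 0.054 for Ndufaf2 and 0.14 for Ndufaf7.

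Ndufa13, an accessory subunit of complex I, stood at 7.71 and 6.83 CPM per kb in control and 11.8 and 13.7 in MERVL-KD 4-cell embryos (log2 fold change 0.81 ± 0.20, adjusted p = 0.021). Ndufv2, a core subunit, stood at 25.1 and 29.4 against 34.1 and 45.0 (0.54 ± 0.14, adjusted p = 0.032), and Uqcrfs1, the Rieske iron-sulfur protein of complex III, at 26.9 and 29.1 against 38.1 and 38.8 (0.46 ± 0.12, adjusted p = 0.033). The MERVL-KD 4-cell level of Ndufa13 was close to its control 8-cell level of 13.5 and 11.9 CPM per kb. Each of these 3 calls was lost without at least 1 of the control libraries. Without the first, adjusted p was 0.25 for Uqcrfs1 and 0.15 for Ndufv2, and without the second 0.11 for Uqcrfs1 and 0.10 for Ndufa13. Without the second MERVL-KD library it was 0.072 for Ndufa13 and 0.12 for Ndufv2.

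At the 8-cell stage Sdhb was lower again, at 6.64 and 6.55 CPM per kb in control and 3.57 and 3.94 in MERVL-KD embryos (log2 fold change -0.80 ± 0.19, adjusted p = 0.031). Atp5g1 (chr11:96068852-96075670, minus strand) stood at 14.5 and 15.1 against 10.6 and 10.0 (-0.51 ± 0.11, adjusted p = 0.019). Uqcrq (chr11:53427922-53430831, minus strand), a small subunit of complex III, stood at 29.2 and 30.0 against 22.3 and 19.5 (-0.49 ± 0.12, adjusted p = 0.042). Without the first control library adjusted p was 0.11 for Sdhb, 0.13 for Uqcrq and 0.058 for Atp5g1. Without the second it was 0.082, 0.15 and 0.088, and without the second MERVL-KD library 0.067 for Uqcrq. Library size alone as the scale also ended all 3 calls. The summed markers of the 8-cell stage and later were also lower in these MERVL-KD embryos, as given above. The part of that sum in the 3 calls was not tested.

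Sdhb was the only member called against control at both the 4-cell and the 8-cell stages, and Ndufaf2 the only one called at both the 2-cell and the 4-cell stages. At the 2-cell stage Sdhb stood at 1.44 and 1.23 CPM per kb in control and 1.19 and 1.06 in MERVL-KD embryos, with a log2 fold change of -0.16 (adjusted p = 0.81). It still rose from the MERVL-KD 2-cell to the 4-cell stage, by 0.92 ± 0.27 (adjusted p = 0.0074), beside 1.89 in control, and the test of that difference gave -0.98 ± 0.38 (adjusted p = 0.18). The other complex II genes were not called at any stage. Sdha had log2 fold changes of -0.11, 0.05 and 0.34, Sdhc -0.41, 0.01 and 0.19, and Sdhd 0.30, 0.07 and 0.67. Cyc1 and Cycs were not called either. Ndufaf2 stood at 2.96 and 2.26 CPM per kb in control and 3.24 and 2.51 in MERVL-KD 8-cell embryos, where the libraries overlapped (0.15, adjusted p = 0.81).

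**Figure D5:**
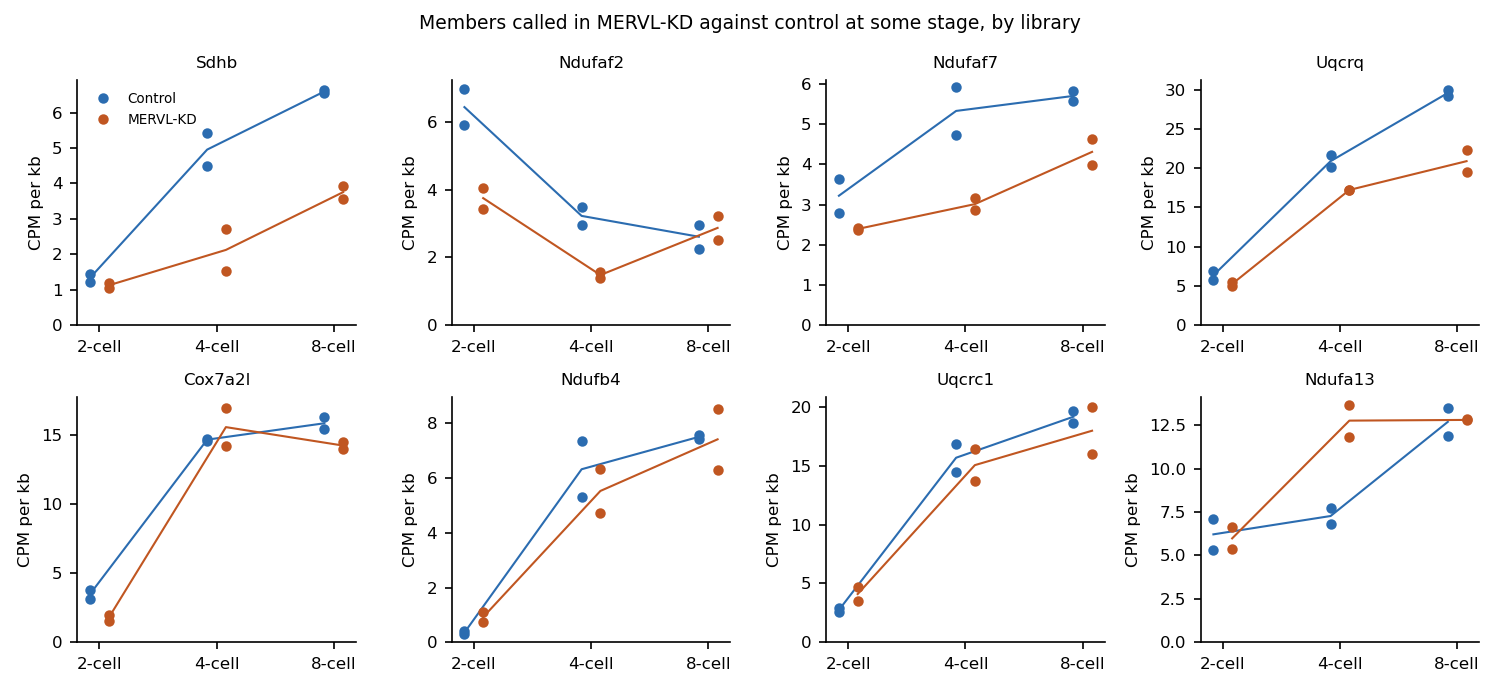
CPM per kb of Sdhb, Ndufaf2, Ndufaf7, Uqcrq, Cox7a2l, Ndufb4, Uqcrc1 and Ndufa13 (y axes) in each control (blue) and MERVL-KD (orange) library at the 3 stages (x axes), with lines joining group means. The MERVL-KD points of Sdhb lie below the control points at the 4-cell stage (2.72 and 1.53 against 4.50 and 5.42) and at the 8-cell stage (3.57 and 3.94 against 6.64 and 6.55).

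Whether the MERVL-KD effect itself differed between stages was tested as a difference of differences in the fit of all 12 libraries. Between the 2-cell and the 4-cell stages it differed for 3 of 96 members, 2 positive and 1 negative, where 4.16% of all genes were called. Scaling by library size alone gave 0 positive and 6 negative calls, kept that of Ndufb4 (-1.86) and ended those of Cox7a2l (0.75) and Cox4i1 (0.37), and the median turned from 0.14 to -0.17 over members and from 0.05 to -0.25 over all genes. Ndufb4 had -1.56 ± 0.41 (adjusted p = 0.035), higher in MERVL-KD at the 2-cell stage and at 4.72 and 6.33 CPM per kb beside 5.30 and 7.33 in control at the 4-cell stage. Cox7a2l had 1.06 ± 0.27 (adjusted p = 0.028): lower in MERVL-KD at the 2-cell stage, it stood at 14.2 and 17.0 beside 14.8 and 14.6 at the 4-cell stage. Cox4i1, the regulatory subunit 4 of complex IV, had 0.68 ± 0.18 (adjusted p = 0.035), at 10.4 and 8.63 beside 11.6 and 11.8 CPM per kb at the 2-cell stage and at 42.7 and 49.6 beside 34.9 and 35.7 at the 4-cell stage. Between the 4-cell and the 8-cell stages edgeR called 0 of 96 members (0.624% of all genes), 5 members had an unadjusted p under 0.05 (11.4% of all genes) and DESeq2 called 1. The call of Ndufb4 was lost without either control 2-cell library, the second MERVL-KD 2-cell, the second control 4-cell or the first MERVL-KD 4-cell library, at adjusted p from 0.061 to 0.15. That of Cox7a2l was lost without the first control or MERVL-KD 2-cell library, either control 4-cell or the second MERVL-KD 4-cell library (adjusted p from 0.073 to 0.17), and that of Cox4i1 without any but the first MERVL-KD 2-cell and 4-cell libraries (adjusted p from 0.062 to 0.28).

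The other nuclear genes of the pathway were taken from 3 lists: 38 assembly factors outside the symbol rule, 11 genes of coenzyme Q synthesis and 14 regulators of mitochondrial and nuclear respiratory genes. From the control 2-cell to the 4-cell stage 21 of 34 tested assembly factors were called higher and 3 lower, 8 and 1 of 11 coenzyme Q genes, and 6 and 2 of 14 regulators, beside 26.4% higher and 28.7% lower among all genes. Tfam, the packaging and transcription factor of mitochondrial DNA, went from 5.23 and 5.09 to 29.9 and 31.4 CPM (log2 fold change 2.57 ± 0.17). Acad9 (3.51) and Pet100 (3.23) rose among the assembly factors, and Cox10, which makes the haem A precursor of complex IV, fell by 2.05.

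Against control, 1 of 34 assembly factors passed as higher and 0 as lower in 2-cell embryos, 1 and 4 in 4-cell embryos and 1 and 1 in 8-cell embryos. For coenzyme Q genes the calls were 1 higher and 1 lower, 0 and 2, and 0 and 0 of 11, and for regulators 0 and 3, 1 and 2, and 0 and 2 of 13. The shares of all genes passing as higher and lower were 6.7% and 7.39% at the 2-cell, 4.92% and 5.84% at the 4-cell and 1.5% and 3.56% at the 8-cell stage. Polrmt, the RNA polymerase of mitochondria, was lower at all 3 stages. It stood at 40.1 and 53.2 CPM in control and 10.6 and 12.9 in MERVL-KD 2-cell embryos, at 167 and 172 against 63.7 and 60.7 at the 4-cell stage and at 198 and 173 against 84.2 and 86.1 at the 8-cell stage. Its log2 fold changes were -1.91 ± 0.16, -1.44 ± 0.10 and -1.12 ± 0.10, and control and MERVL-KD libraries were far apart each time. Cox10 stood at 102 and 92.3 against 75.9 and 84.2 CPM at the 2-cell stage (-0.20, adjusted p = 0.23), at 23.7 and 23.3 against 4.39 and 3.97 at the 4-cell stage (-2.48 ± 0.19) and at 30.9 and 28.7 against 7.36 and 8.16 at the 8-cell stage (-1.93 ± 0.17). Sdhaf3, an assembly factor of the Sdhb subunit, stood at 1.70 and 2.92 CPM in control and 0.165 and 0.0584 in MERVL-KD 4-cell embryos (adjusted p = 0.0023), the latter resting on very few counts. Nrf1 was lower at the 2-cell stage, at 65.2 and 70.9 against 36.3 and 44.6 CPM (-0.67 ± 0.12, adjusted p = 0.0012), and Tfam was called at no stage. Polrmt, Cox10, Sdhaf3 and the other genes of these lists were not searched for matches of the oligonucleotides.

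Some members share bases with other genes or copies, and since the authors kept uniquely aligned reads this can lower their level. Of the 99 members 61 had at least 1 exonic stretch of 50 bases that occurs elsewhere in the genome and 38 had none. In 9 members the repeated stretches made up at least 25%, among them Cox7a2l with 44.7% and Atp5g1 with 26.0%, while Sdhb, Ndufaf5 and Uqcrc1 had none and Ndufb4 had 16.1%. At least 20% of exonic bases were shared with another gene in 4 members. Ndufaf2 shares 65.6% of its exonic bases with the antisense gene B230220B15Rik and Ndufa13 shares 30.0% with Tssk6 on the other strand. Ndufb6 shares 39.0% with Smim27, also on the other strand. Atp5o shares 43.8% with Donson, D430001F17Rik and Gm15976, 12.7% on the same strand. The strand setting of the counting is not given in the sources used here, so reads of such partners cannot be told apart from those of the member. The levels counted for the partners ran from 0.048 to 0.87 CPM for B230220B15Rik and from 0 to 2.75 CPM for Tssk6. Donson was higher, from 10.3 to 56.0 CPM, and fell from the control 2-cell to the 4-cell stage (log2 fold change -2.07). The part of these partners in the changes was not tested.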

How the data were processed

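Total RNA-seq libraries of 6 groups, 2 libraries each, were used. Per the labels and the study's methods, the authors made cDNA with a stranded kit that removes ribosomal fragments, aligned reads with STAR 2.5.3a to GRCm38, discarded reads with more than 1 alignment, and used featureCounts for GENCODE genes and RepeatMasker families. They deposited raw counts, 28167085 to 41482526 per library, with no normalization. The strand setting, and whether mates were counted singly, are not given in the sources used here. Of genes with 1 to 50 counts, 71.7% to 74.5% had an even count, so counts overstate independent fragments. The authors' DESeq2 1.16.1 results were not used.

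Genes and repeat families were tested together with edgeR 4.0.16 in R 4.3.3 (filterByExpr, TMM, robust quasi-likelihood, Benjamini-Hochberg). MERVL-KD and control were compared stage by stage in fits of 4 libraries, and stage steps and differences of effects in a fit of all 12. A call is an adjusted p under 0.05. CPM is counts per 1000000 of library size scaled by TMM over 12 libraries, and CPM per kb divides it by the deposited exon length. Members and lists were chosen with earlier results of these data known. Genes were named by rule: members called against control or in a difference of effects, the 5 largest steps each way past 2-fold, succinate dehydrogenase, Cyc1, Cycs, paralogue sets, and the highest and lowest of each complex. Other members and pathway genes were named after their values were seen. The scripts were tested on simulated data. Alternatives were DESeq2 1.42.0, other scalings, filters and fits, a replicate block and leaving out each library. Halved counts were added after seeing the data. Promoter windows were read with Python 3.11.15. The ATAC-seq libraries were not analysed here.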

Additional observations from a re-analysis of the deposited data

Results flagged for a closer look

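For 3 members the MERVL-KD effect differed between the 4-cell and the 2-cell stages in edgeR's test of the difference itself. Benjamini-Hochberg adjustment was over all genes and repeat families tested. The log2 effect at the 4-cell stage minus that at the 2-cell stage was -1.56 for Ndufb4, 0.68 for Cox4i1 and 1.06 for Cox7a2l. Ndufb4 rests on 24 and 22 counts in the control 2-cell libraries, and 44.7% of the exonic 50-base stretches of Cox7a2l occur elsewhere in the genome. The part of either in these values was not tested. With library size alone as the scale the calls of Cox4i1 and Cox7a2l were lost.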

How the results depend on the processing

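With 2 libraries per group, calls against control were few and most were lost without 1 library. Leaving out 1 library gave 3 to 9 called members at the 2-cell, 3 to 12 at the 4-cell and 0 to 6 at the 8-cell stage, 76 to 78 for the 2-cell to 4-cell step in either condition, 2 to 3 for the control and 2 to 4 for the MERVL-KD 4-cell to 8-cell step, and 0 to 4 and 0 to 1 for the differences of effects. Medians then ran from -0.066 to -0.0027 at the 2-cell, 0.030 to 0.077 at the 4-cell and -0.13 to -0.049 at the 8-cell stage, from 1.38 to 1.49 and 1.44 to 1.67 over the 2-cell to 4-cell step in control and MERVL-KD, and from 0.33 to 0.37 and 0.21 to 0.31 over the next.

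Requiring 2-fold left 2, 2 and 0 calls against control and 0 in either 4-cell to 8-cell step. Library size alone gave 14 calls in 2-cell and 1 in 8-cell embryos, 3 and 1 in the control and MERVL-KD 4-cell to 8-cell steps and 6 differences between the 2-cell and 4-cell effects, all negative, with medians of 0.30, 0.12 and 0.059 against control and 1.60, 0.13, 1.44 and 0.089 over the steps, while the median of all genes moved to 0.30, 0.09 and 0.13 and to 0.10, -0.21, -0.19 and -0.17. DESeq2 called 23 and 8 members in the 4-cell to 8-cell steps, and 5 and 1 differences of effects, and its size factors in edgeR called 18 in the control step. Both gave a control 2-cell to 4-cell median of 1.38. A filter of 1 count in any library called 10 at the 4-cell stage and 1 difference between the 4-cell and 8-cell effects, with a MERVL-KD 2-cell to 4-cell median of 1.51. A filter of 10 counts in every library called 18 in the control 4-cell to 8-cell step and 5 differences, with a median of 1.38. Fits of only the 4 libraries of a step called 22 and 1 in the 4-cell to 8-cell steps, with a control 2-cell to 4-cell median of 1.57, and all 12 libraries in 1 fit gave a 2-cell median of -0.085. Halved counts gave medians of 1.52 and 1.63. The causes were not tested. DESeq2 ended the 2-cell calls of Ndufb4 and Cox7a2l, the fit of all 12 libraries those of Ndufb2 and Cox7b and of Sdhb at the 8-cell stage, and the fit without robust estimation that of Uqcrq. Of 498 values of single genes under all alternatives 426 kept direction and side of the threshold and 0 turned direction past it.

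Replicate numbers were not used as pairs in the main fits. Same-numbered deviations correlated at -0.01, -0.00 and 0.01 at the 3 stages. With 2 libraries per group these values cannot tell whether same-numbered libraries shared a batch. With a replicate block 7, 5 and 3 members were called against control and 80 in the control 2-cell to 4-cell step.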

Other observations

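Cox6a2, the heart and muscle form of complex IV subunit 6a, was listed at 18 and 12 counts in control and 40 and 31 in MERVL-KD 2-cell embryos, and at 0 to 6 counts in the 8 later libraries. Cox8c, a testis form of subunit 8, was listed at 0 counts in all 4 libraries of the 8-cell stage and at 2 to 14 counts before.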
